A study of Mus musculus with 6 samples.

Results

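The genes described here encode 8 solute carrier families that move amino acids, short peptides and related small molecules across cell membranes. They are the genes whose platform symbol is Slc1a, Slc3a, Slc6a, Slc7a, Slc15a, Slc36a, Slc38a or Slc43a followed by a number, without the cystine transporter gene Slc7a11. The array named 61 such genes among 19057 measured genes. Slc6a20a and Slc6a20b, a pair of gene copies told apart by a letter, were kept, and each probe may see the other copy. Slc7a6os was left out because it is a separate gene on the opposite strand of Slc7a6 and encodes no transporter. They were measured on Illumina bead arrays in organoids of mouse small intestine, miniature epithelia that grow in gel. Control organoids came from Villin-Cre mice and knockout organoids from mice of the strain Villin-Cre, Snai1fl/fl, whose Snai1 gene is flanked by loxP sites. Both groups were given tamoxifen at 0.5 µM for 24 hours before harvest, and both carried the Cre, which the Villin promoter drives in intestinal epithelial cells. Each group had 3 arrays. Nothing in the labels tells whether a group's arrays stem from separate mice or cultures, so p-values measure only the spread between these arrays, which may be technical. Snai1 itself, by the brighter of its 2 probes, read 7.87, 7.93 and 7.94 in control and 7.91, 7.86 and 7.96 in knockout organoids (a difference of 0.00 ± 0.03, SE). The other probe was dimmer still and differed by 0.02, so these arrays do not check the deletion, and knockout below means the libraries labelled so.

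Dietary protein reaches the intestinal epithelium as free amino acids and as dipeptides and tripeptides. Carriers in the brush border, the apical membrane of enterocytes, take them up with the help of sodium or proton gradients or by exchange. Carriers in the basolateral membrane release them toward the blood, and many of those are light chains of the Slc7 family bound to a heavy chain of the Slc3 family. Dividing crypt cells use a further set of carriers to feed their own protein synthesis, and several members of the Slc1 and Slc6 families are best known for clearing neurotransmitters in the brain. Snai1 encodes a zinc-finger repressor that binds E-box sequences.

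The deposited values are logarithms, read as log2 since no base is stated, and have the same distribution on every array. They ran from 7.71 to 14.78, with a median of 7.87 and an upper quartile of 8.27, so low values are compressed and differences of dim genes are understated. Of the 61 transporter genes, 16 had a mean above the upper quartile and 73.8% lay below it, against 63.4% of all measured genes. A dim value here is not evidence of absence. The fatty acid binding protein genes Fabp1 and Fabp2, which are abundant in mature enterocytes and were named after their values were seen, read 7.80 ± 0.02 and 7.82 ± 0.07 on control arrays (SD, n = 3), brighter than only 1.93% and 14.1% of measured genes. They were exceptions, since 12 of 14 measured enterocyte markers lay above the upper quartile. Whether these organoids express Fabp1 and Fabp2 was not tested. In bulk organoids, fewer cells of a type and less RNA per cell cannot be told apart.

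The brightest transporter gene was Slc6a6, which encodes the taurine transporter, at 13.06 ± 0.13 in control and 13.13 ± 0.16 in knockout organoids (SD, n = 3 each), brighter than 98.6% of measured genes. Next came Slc38a2, a sodium-coupled carrier of small neutral amino acids, and Slc7a9, the light chain of the brush border exchanger for cystine and basic amino acids. Slc6a8 (the creatine transporter), Slc7a4 (a relative of the cationic amino acid carriers), Slc6a9 (a glycine transporter), Slc6a19 (the main brush border carrier of neutral amino acids), Slc7a8, Slc1a4 and Slc6a4 followed, with means over the 6 arrays from 9.94 down to 9.20 and many neighbours in that order closer than the spread of their arrays. The other 6 genes above the upper quartile, Slc7a7, Slc38a1, Slc15a4, Slc1a1, Slc38a7 and Slc1a3, lay between 8.88 and 8.40. These are levels of single probes, so their order also reflects how strongly each probe responds.

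**Figure D1:**
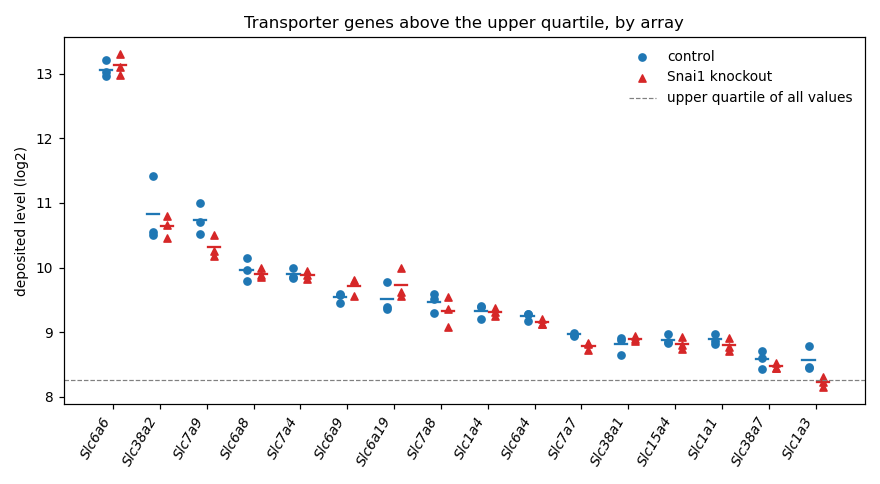
Deposited level (log2, y axis) on each array of the 16 transporter genes with a mean over 8.27, ordered by mean. Circles are the 3 control arrays, triangles the 3 knockout arrays, short bars the group means, and the dashed line that upper quartile. The knockout arrays of Slc7a9, Slc7a7 and Slc1a3 all lie below their control arrays, and 1 control array of Slc38a2 stands at 11.42.

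No transporter gene passed the test between knockout and control. With limma, 0 of 61 had an adjusted p under 0.05, where 0.131% of all genes (25 of 19057) did. With the replicate number as a block it was again 0 of 61, beside 0.0472% of all genes. The labels do not state that arrays of equal number belong together, and pair below means only an equal number. Without the block the lowest adjusted p among the 61 was 0.28. At an unadjusted p under 0.05 there were 7 transporter genes, or 11.5%, beside 7.22% of all genes. Of these 7, Slc7a9, Slc1a3, Slc7a7, Slc6a15 and Slc6a4 were lower in knockout organoids, and Slc15a2 and Slc7a6 were higher. With the block the number was 10, or 16.4%, beside 10.9% of all genes. The 3 knockout values lay wholly above or below the 3 control values for 11 transporter genes, or 18%, beside 12% of all genes. Of the 11, 9 were lower and 2 higher.

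Most differences were small. Of the 61 genes, 21 had a higher and 40 a lower mean in knockout organoids, with a median difference of -0.01, where the median over all genes was -0.0006 and 49.3% of all genes were higher. Among the 16 brighter genes, 12 were lower and 4 higher, and the median was -0.08, against 0.004 over all genes above the upper quartile. In this fit 4 of the 16 (25%) had an unadjusted p under 0.05, beside 14.9% of all genes above the upper quartile. The farthest from 0 among the 45 dimmer genes was Slc7a6 at 0.11, on a scale that understates changes at that level. The differences ran from -0.43 for Slc7a9 to 0.22 for Slc6a19.

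**Figure D2:**
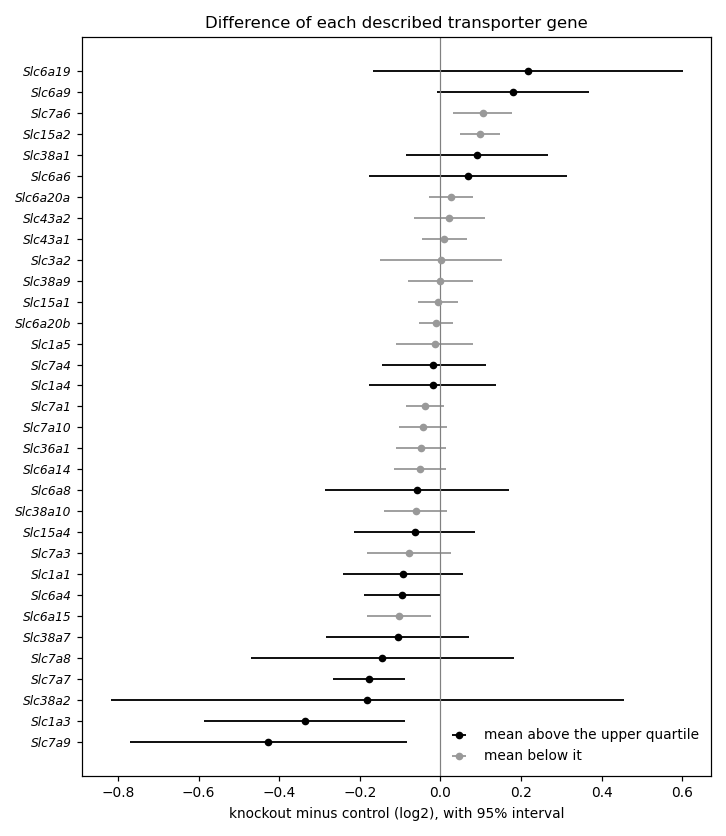
Knockout minus control (log2, x axis) for the transporter genes described, with limma's 95% interval, ordered by difference. Black marks genes above the upper quartile and grey the dimmer ones. Intervals are unadjusted, and those of Slc7a9, Slc1a3, Slc7a7, Slc6a15, Slc6a4, Slc7a6 and Slc15a2 do not reach 0.

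Among carriers of the brush border, 10 of 11 listed genes were measured, 4 with a higher and 6 with a lower mean, and none was called. Slc7a9 read 10.71, 10.53 and 11.00 on control arrays 1 to 3 and 10.18, 10.26 and 10.51 on knockout arrays 1 to 3. Every knockout value was below every control value, although the highest of the knockout arrays came within a few hundredths of the lowest control. The difference was -0.43 ± 0.14 (SE; 95% interval -0.77 to -0.08), a 1.35-fold higher level in control (limma adjusted p = 0.56; exact permutation p = 0.1, the smallest that 3 arrays against 3 allow). By replicate number the differences were -0.53, -0.27 and -0.48. Slc3a1, the heavy chain that Slc7a9 needs to reach the membrane, was not analysed here.

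Slc6a19 leaned the other way. It read 9.78, 9.39 and 9.36 on control arrays 1 to 3 and 9.99, 9.62 and 9.57 on knockout arrays 1 to 3. The groups overlapped, because replicate 1 was the highest array in each of them. Within replicate numbers the knockout array was higher by 0.21, 0.23 and 0.21, so the 3 pairs differed by nearly the same amount. The difference was 0.22 ± 0.16 (SE; 95% interval -0.17 to 0.60; limma adjusted p = 0.89). It was 0.08 without knockout replicate 1 and 0.35 without control replicate 1. Its second probe, at a dim 8.18, differed by 0.05 ± 0.04. With the block its adjusted p was 0.10, the lowest of any setting tried, the highest being 0.999.

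Slc1a1, which carries glutamate and aspartate, read 8.87, 8.97 and 8.83 in control and 8.71, 8.90 and 8.77 in knockout organoids. It was lower in every pair, with overlapping groups and a difference of -0.09 ± 0.06 (SE). Slc6a6 was higher in every pair, by 0.10, 0.03 and 0.08. The rest of the brush border list was dim, below the upper quartile. Slc15a1, which encodes the proton-coupled peptide transporter of the small intestine, read 7.92 ± 0.02 and 7.91 ± 0.01, and its second probe, no brighter, differed by -0.02. Slc36a1, a proton-coupled carrier of small amino acids, was at 7.94 and 7.90, Slc6a14 at 7.84 and 7.79, and Slc6a20a at 7.85 and 7.87 in control and knockout. Slc6a14 had groups that did not overlap, by a difference of -0.05. The same held for Slc6a20b, the dimmest of the list at 7.80 and 7.79, by a difference of -0.01. At these levels the compressed scale limits what can be read from the dim genes of this list.

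All 6 listed carriers of the basolateral side were measured, 4 higher and 2 lower, and none was called. Slc7a7, the light chain that exports basic amino acids in exchange for neutral ones, read 8.96, 8.94 and 8.99 in control and 8.72, 8.82 and 8.83 in knockout organoids. The groups did not overlap, and the difference of -0.18 ± 0.04 (SE; 95% interval -0.27 to -0.09) had an adjusted p of 0.29 (limma). Its second probe, nearly as bright, did not show this, reading 8.82, 8.70 and 8.76 in control and 8.75, 8.77 and 8.82 in knockout organoids, a difference of 0.02 ± 0.04. Slc7a8, the light chain of an exchanger for neutral amino acids, read 9.59, 9.30 and 9.52 in control and 9.54, 9.07 and 9.35 in knockout organoids. It was lower in each pair, with overlapping groups (-0.14 ± 0.13, SE; limma adjusted p = 0.93), and its second probe gave -0.16. Leaving out 1 array moved the difference from -0.25 (without knockout replicate 1) to -0.02 (without knockout replicate 2).

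Slc7a6, a close relative of Slc7a7 with the same kind of exchange, read 8.08, 8.02 and 8.08 in control and 8.13, 8.18 and 8.20 in knockout organoids. These groups did not overlap either, but in the opposite direction to Slc7a7, and the difference was 0.11 ± 0.03 (SE; limma adjusted p = 0.47) at a dim level. Slc3a2, the heavy chain shared by the basolateral light chains, was measured by 1 dim probe at 8.04 ± 0.03 and 8.04 ± 0.12. Slc43a1 and Slc43a2, which let neutral amino acids leave the cell, differed by 0.01 and 0.02.

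**Figure D3:**
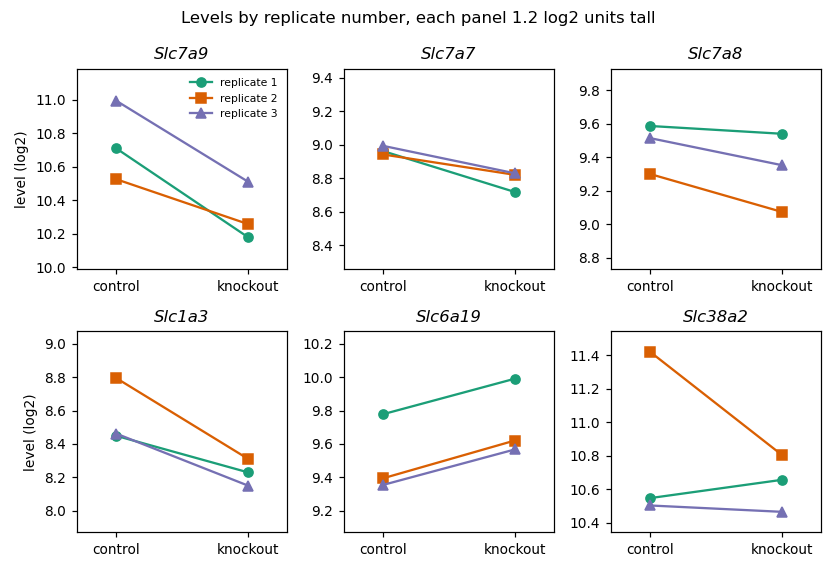
Level (log2, y axis) of 6 transporter genes in control and knockout organoids, with arrays of the same replicate number joined by a line. Each panel spans the same height. Slc7a9, Slc7a7, Slc7a8 and Slc1a3 are lower in all 3 pairs, Slc6a19 is higher in all 3, and Slc38a2 is set by replicate 2, where control reads 11.42 and knockout 10.81.

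The sequences upstream of 4 of these genes are shown because Snai1 binds E-boxes and these are the genes of absorption with the most separated groups or pairs, Slc7a9 and Slc7a7 lower and Slc7a6 and Slc6a19 higher. Each is the 250 bases before the most upstream start in RefSeq (GRCm38.p6), 5′ to 3′ on the gene's strand. Slc7a9 is at chr7:35448842-35449091 (plus strand), Slc7a7 at chr14:54417945-54418194 (minus), Slc7a6 at chr8:106168604-106168853 (plus) and Slc6a19 at chr13:73692637-73692886 (minus). Capitals mark the Snail family E-box, searched as CAGGTG and, for the other strand, CACCTG.
Slc7a9: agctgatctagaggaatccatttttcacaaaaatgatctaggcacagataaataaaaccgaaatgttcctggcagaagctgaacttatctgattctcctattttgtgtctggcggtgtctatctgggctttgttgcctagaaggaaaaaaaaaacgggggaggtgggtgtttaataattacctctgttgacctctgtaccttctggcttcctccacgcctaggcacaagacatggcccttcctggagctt
Slc7a7: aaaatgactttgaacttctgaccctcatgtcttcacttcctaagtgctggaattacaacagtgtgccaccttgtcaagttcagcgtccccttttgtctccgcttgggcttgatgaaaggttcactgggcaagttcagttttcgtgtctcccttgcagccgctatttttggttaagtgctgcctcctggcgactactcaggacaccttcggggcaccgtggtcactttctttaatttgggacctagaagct
Slc7a6: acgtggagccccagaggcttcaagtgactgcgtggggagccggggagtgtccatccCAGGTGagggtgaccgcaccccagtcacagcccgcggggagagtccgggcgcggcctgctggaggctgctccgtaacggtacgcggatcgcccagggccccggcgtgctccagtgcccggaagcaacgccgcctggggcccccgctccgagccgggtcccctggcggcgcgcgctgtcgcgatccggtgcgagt
Slc6a19: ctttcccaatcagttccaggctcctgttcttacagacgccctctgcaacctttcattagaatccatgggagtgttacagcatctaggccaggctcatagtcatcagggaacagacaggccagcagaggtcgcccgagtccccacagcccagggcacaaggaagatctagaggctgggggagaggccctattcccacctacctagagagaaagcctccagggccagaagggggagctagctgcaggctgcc
Of these 4 windows only that of Slc7a6 held the E-box letters, 194 bases before the start. RefSeq windows were given for 44 of the 61 genes, and 12 of their 65 windows, from 11 genes, held an E-box, a share of 18.5% beside 17.2% of all 32851 windows. Slc7a6 was among these 11, and Slc7a9, Slc7a7 and Slc6a19 were not. The core of the amino acid response element, searched as TGATGCAA and TTGCATCA, was in 1 of the 65 windows (1.54%), at a further start of Slc7a7, beside 0.791% of all windows. A match is only a match of letters.

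The list of carriers that supply amino acids to cells in general had 11 of 12 genes measured, 2 higher and 9 lower, and none was called. Slc38a2 read 10.55, 11.42 and 10.50 in control and 10.66, 10.81 and 10.46 in knockout organoids. Control replicate 2 stood far above the other 5 arrays, and the difference of -0.18 ± 0.26 (SE) became 0.12 without it. On its second probe, control replicates 1 to 3 read 10.10, 10.15 and 10.52, so replicate 2 was not the highest there, and the groups differed by 0.01 ± 0.17 (SE). Slc6a9 read 9.59, 9.46 and 9.57 in control and 9.56, 9.80 and 9.80 in knockout organoids, so 2 of 3 pairs were higher, and the difference was 0.18 ± 0.08 (SE; limma adjusted p = 0.72).

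Slc38a1, a further sodium-coupled glutamine carrier, differed by 0.09 and was higher in 2 of 3 pairs. Slc1a4, an exchanger of alanine, serine and cysteine, read 9.34 ± 0.11 and 9.32 ± 0.06. Its relative Slc1a5, which exchanges glutamine, was dim on all 5 of its probes, from 8.03 down to 7.82. Its brightest probe differed by -0.01, while the next 2 differed by -0.09 and -0.07 (unadjusted p = 0.032 and 0.023 in the limma fit of all probes; adjusted p = 0.73 and 0.68). The cationic carriers Slc7a1 and Slc7a3 had non-overlapping groups with differences of -0.04 and -0.08 at levels of 7.89 and 7.97. Slc7a5, the light chain that brings leucine into dividing cells, was not analysed here.

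Of the transporters best known from neurons and glia, 13 of 14 were measured, 11 with a lower and 2 with a higher mean, and none was called. Slc1a3, a glutamate and aspartate transporter, read 8.45, 8.79 and 8.46 in control and 8.23, 8.31 and 8.15 in knockout organoids. The groups did not overlap. The difference was -0.34 ± 0.10 (SE; 95% interval -0.59 to -0.09), a 1.26-fold higher level in control, with an adjusted p of 0.51 (limma), and it rests on 1 probe. Slc6a4, the serotonin transporter, which gut epithelium also uses, read 9.28, 9.18 and 9.28 in control and 9.13, 9.13 and 9.20 in knockout organoids. Its groups overlapped slightly, and the difference was -0.09 ± 0.04 (SE; limma adjusted p = 0.69). Slc6a15, a carrier of branched-chain amino acids, differed by -0.10 ± 0.03 (SE) at a dim 8.04, and the second of its 5 probes differed by 0.04.

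Of the 5 lysosomal or endosomal transporters measured, 1 had a higher and 4 a lower mean. Slc15a4, which exports histidine and peptides from endolysosomes, differed by -0.06, and Slc38a7, a lysosomal glutamine exporter, by -0.11. Slc38a9, the lysosomal arginine sensor, read 8.15 in both groups. Slc38a10, a further family member, differed by -0.06 ± 0.03 (SE) at 8.06. Slc15a2, a peptide transporter better known from kidney, had the lowest adjusted p of all 61 genes (0.28, limma). It read 7.85, 7.82 and 7.85 in control and 7.93, 7.95 and 7.94 in knockout organoids, a difference of 0.10 ± 0.02 (SE) close to the middle of all values, and its second probe differed by -0.03.

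By family, the groups did not overlap for 6 of 13 Slc7a genes (46.2%, beside 12% of all genes), with Slc7a9, Slc7a7, Slc7a3, Slc7a1 and Slc7a10 lower and Slc7a6 higher, and 11 of the 13 had a lower mean. In Slc6a the groups did not overlap for 3 of 19 genes (15.8%, near that background; Slc6a14, Slc6a15 and Slc6a20b, all lower), in Slc1a for 1 of 7 (Slc1a3) and in Slc15a for 1 of 5 (Slc15a2). There was none among 10 Slc38a, 3 Slc36a and 3 Slc43a genes or in Slc3a2, the single Slc3a gene. The families were not tested against each other. Slc7a3, Slc7a1 and Slc7a10 were all dim, and their differences were at most 0.08 in size.

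Several probes were present for 34 of the 61 genes, and the first and second brightest differed in the same direction for 19 of them. For 4 genes both probes exceeded the upper quartile. Of these, Slc7a9 and Slc7a8 were lower by both, and Slc7a7 and Slc38a2 were not. The second probe of Slc7a9 read 10.14, 9.90 and 10.16 in control and 9.86, 9.64 and 9.90 in knockout organoids, a difference of -0.26 ± 0.09 (SE; unadjusted p = 0.033, adjusted p = 0.74 in the limma fit of all probes). Its groups just overlapped, with knockout replicate 3 at 9.9013 and control replicate 2 at 9.9004. The dimmest probe of Slc7a9, at 8.08, differed by -0.06. Which transcripts each probe sees was not analysed here.

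**Figure D4:**
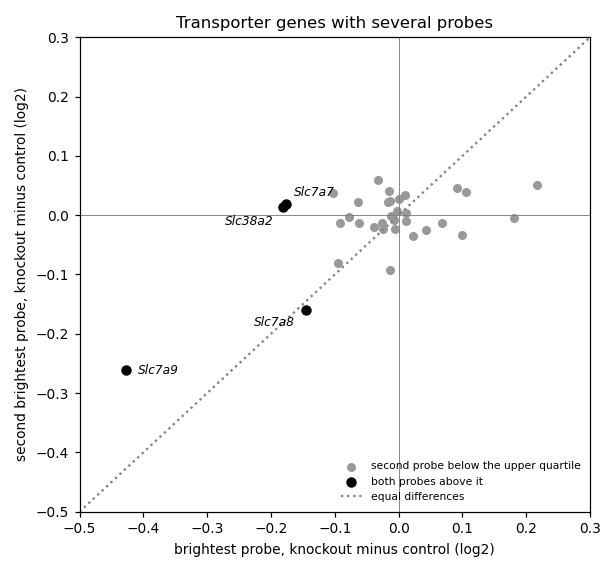
Knockout minus control (log2) by the brightest probe (x axis) and the second brightest (y axis) for the 34 transporter genes with several probes. Black points have both probes above the upper quartile of all values, and the dotted line marks equal differences. Slc7a9 and Slc7a8 are below 0 on both axes, whereas Slc7a7 and Slc38a2 are below 0 only by the brightest probe.

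Genes around the transporters were taken from 5 lists, and none of their members was called in either direction. In the list of amino acid starvation genes, where cells short of amino acids raise Atf4 and its targets, 10 of 23 measured genes were higher and 13 lower. Atf5, a transcription factor of this response, read 11.71, 11.70 and 11.66 in control and 11.35, 11.38 and 11.45 in knockout organoids. The groups were well apart, and the difference was -0.30 ± 0.03 (SE; limma adjusted p = 0.070, from 0.054 to 0.38 over the alternatives). Mthfd2, a mitochondrial folate enzyme, read 11.86, 11.83 and 11.82 in control and 11.65, 11.62 and 11.67 in knockout organoids, a difference of -0.19 ± 0.02 (SE; limma adjusted p = 0.089, from 0.066 to 0.92 over the alternatives). With the mean of its 2 probes Mthfd2 differed by -0.16 (limma adjusted p = 0.38). Trib3, a pseudokinase that Atf4 induces, differed by -0.21 ± 0.08. Of 2 bright genes named after their values were seen, Atf4 itself differed by -0.16 ± 0.13 and Asns, the asparagine synthetase gene, by 0.12 ± 0.07. Atf4 was -0.01 without knockout replicate 1, and Asns 0.07 without control replicate 2. At an unadjusted limma p under 0.05 there were 3 of the 23 genes, Atf5, Mthfd2 and Trib3, all lower. Of the 23, 19 lay above the upper quartile, where 14.9% of all genes had such a p, beside 7.22% over all genes. The list was not tested as a set. Trib3 differed by 0.02 on its second probe.

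In the list of amino acid sensing by mTORC1, the kinase complex that couples nutrients to growth, 15 of 30 genes were higher and 15 lower. Tsc2, an inhibitor of the complex, differed by 0.13 ± 0.02 (SE; limma adjusted p = 0.28), Sesn2, a leucine sensor, by 0.11 ± 0.03 and Lamtor1, which anchors the complex's activators to lysosomes, by -0.23 ± 0.07. With the mean of all their probes, Tsc2 differed by 0.07 and Sesn2 by 0.06. Of 16 peptidases of the brush border and cytosol, 6 were higher and 10 lower. Dpep1, a membrane dipeptidase, differed by -0.25 ± 0.08, Naaladl1, a brush border peptidase, by 0.39 ± 0.14, and Cndp2 by -0.09 ± 0.05. Among 12 genes of the ion gradients that drive uptake, 8 were higher. The sodium pump subunits Atp1b3 and Atp1b1 differed by 0.12 ± 0.03 and 0.15 ± 0.05, and Nedd4, a ubiquitin ligase, by 0.14. Of 12 other carriers, 6 were higher and 6 lower. Slc7a11 differed by -0.29 ± 0.07 (limma adjusted p = 0.35) on its brightest probe and by -0.08 with the mean of its 5 probes. The mitochondrial Slc25a13 and vesicular Slc32a1 differed by 0.03 and -0.02.

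Markers of the cell types were read on the same arrays. Of 14 enterocyte markers, 11 had a lower mean in knockout organoids and none was called, with a median difference of -0.08. Their summed linear level was 54513 to 66921 on control and 53390 to 61552 on knockout arrays. Of 11 crypt base stem cell markers, 10 were higher and none was called, with a median of 0.08 and summed levels of 27987 to 34546 and 29927 to 37043. These differences went with the lower median of the brighter transporter genes, but not with every bright carrier of the brush border. Slc7a9 and Slc1a1 were lower in every pair, whereas Slc6a19 and Slc6a6 were higher in every pair. What part the marker differences have in the transporter values was not tested. Enteroendocrine markers (13 measured) had 8 lower, Paneth markers 3 of 6, goblet markers 4 of 8 and tuft markers 2 of 6. An unadjusted limma p under 0.05 was reached by 3 of 13 enteroendocrine (all lower), 2 of 14 enterocyte (both lower) and 1 of 11 stem cell markers (higher). The share was 7.22% of all genes and 14.9% of those above the upper quartile. Groups did not overlap for 3, 0 and 1 of these markers in turn, beside 12% of all genes. Markers of other tissues were dim, nearly all of them below the upper quartile of 8.27. The highest level was 7.91 among 9 immune, 7.96 among 11 mesenchymal or muscle and 8.11 among 9 neuron or glia markers, while 1 of 7 endothelial markers exceeded the upper quartile, at 8.34. The summed level of the neuron and glia markers was 2071 to 2131 on control and 2105 to 2138 on knockout arrays.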

How the data were processed

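Transcripts were measured on 6 arrays, 3 control and 3 Snai1 knockout, grouped by their titles. The authors deposited values on a log scale, taken as log2, for 45281 probes. Sorted values differed between arrays by at most 0.0019, so distributions had been equalised. No label or header states the base, the background correction or the software. The platform annotation gave 34885 probes 1 gene, 18 several and 10378 none. Each gene took its probe of highest mean over the 6 arrays.

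Groups were compared across all 19057 genes with limma 3.58.1 in R 4.3.3 (lmFit, eBayes without trend; Benjamini-Hochberg over all genes, threshold 0.05). The test was checked on simulated data. The number of arrays limits precision, and the median SE was 0.067 above the upper quartile. Deviations from group means correlated at 0.35, 0.33 and 0.46 between arrays numbered 1, 2 and 3. Between arrays of unlike number they correlated at -0.33 to 0.003. Deviations within a group add up to 0, which ties these values to each other. The numbers were taken as pairing arrays in the blocked alternative. The labels state no pairing, so it rests on these same values.

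The members, lists and tests were chosen with earlier results of these data known. Named were 19 measured absorption transporters, the 12 members of lowest p, the 10 brightest, any called, those whose first probes disagree at p under 0.05, and the 3 lowest p in each related list. Chosen after their values were seen were Slc38a7, Slc6a20b, Slc7a3, Slc7a10, Atf4, Asns, Fabp1, Fabp2 and Snai1. RefSeq (GRCm38.p6) served for promoter sequences. RefSeq gene positions were also used to order genes along chromosomes, and that ordering is not reported here. Alternatives covered the block, normalization, dim genes, probes, variance, weights and leaving out each array.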

Additional observations from a re-analysis of the deposited data

How the results depend on the processing

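No transporter gene was called in any of the 13 alternatives run. Normexp on scanner signals and slide as a block were not run, because the deposited table has neither. The count over all genes was 25, against 9 with the replicate block, 41 among genes above the upper quartile, 60 with a variance trend and 4 to 23 leaving out 1 array. It was 6, 15 and 9 when control replicates 1, 2 and 3 were left out in turn, and 13 and 4 for knockout replicates 2 and 3. With only genes above the upper quartile fitted, 3 of 16 transporter genes (18.8%) had an unadjusted p under 0.05, beside 9.48% of all genes there, and 3 had groups apart, beside 14.9%, with a median difference of -0.0781, and fewer genes are tested there. Groups apart numbered 17 by any probe (27.9%, beside 18.8% of all genes), and 13 to 20 leaving out 1 array. Without control replicate 2 there were 13, or 21.3%, below the 22.3% of all genes. Without control replicates 1 and 3 the share was 26.2% and 29.5% (18 genes), beside 21.5% and 22.8%. Without knockout replicates 1, 2 and 3 it was 32.8%, 23% and 24.6%, beside 24.4%, 21% and 19.9%. Fewer arrays overlap less often by construction. Transporter genes with an unadjusted limma p under 0.05 numbered 5 to 7 leaving out 1 array. Without knockout replicate 1 they made up 8.2%, below the 9.09% of all genes. With each other array left out their share exceeded that of all genes.

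For the 53 genes named, 309 of 329 values with all arrays kept their sign and side of the threshold, as did 295 of 318 with 1 array left out. Signs turned for genes whose difference was small or whose second probe disagreed, and the cause was not tested. By the second probe the differences were 0.0196 for Slc7a7, -0.0358 for Slc43a2, 0.0145 for Slc38a2, 0.0219 for Slc15a4, -0.0333 for Slc15a2, 0.0382 for Slc6a15, -0.00522 for Slc6a9, -0.0125 for Slc6a6, 0.0224 for Slc7a4, -0.00953 for Slc25a13, 0.0209 for Trib3, -0.0235 for Nedd4 and 0.015 for Snai1. With the mean of all probes they were -0.00662 for Slc43a2, 0.00256 for Slc7a4 and 0.00614 for Snai1. With array weights they were -0.00658 for Slc38a9, 0.00416 for Slc7a4 and 0.000335 for Snai1, and with cyclic loess -0.00358 for Slc38a9. Leaving out 1 array, the ranges were -0.0161 to 0.00524 for Slc15a1, -0.0673 to 0.045 for Slc3a2, -0.00645 to 0.0195 for Slc43a1, -0.00523 to 0.047 for Slc43a2, -0.0853 to 0.016 for Slc1a4, -0.0375 to 0.0208 for Slc1a5, -0.342 to 0.117 for Slc38a2, -0.018 to 0.0272 for Slc38a9, -0.0191 to 0.142 for Slc6a6, -0.146 to 0.0319 for Slc6a8, -0.0461 to 0.031 for Slc7a4, -0.0384 to 0.0197 for Fabp2 and -0.0257 to 0.0217 for Snai1.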
